A study of Arabidopsis thaliana with 9 samples.

Results

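SAUR genes (small auxin up RNA) are a large plant family of short, mostly intronless genes whose transcripts accumulate quickly after auxin. Transcript levels of 49 SAUR genes of Arabidopsis thaliana, out of 27655 genes in the deposited table, were compared in 10-day-old seedlings of 3 genotypes. The 49 were taken by locus number from a list drawn up with earlier results of these data in view, so their values are given as a description. The wild type was Col. The line h3.3ko;HTR5 G34R is abbreviated to G34R, and the line h3.3ko;HTR5 G34W to G34W. By name, both lack normal histone H3.3 genes and carry HTR5, an H3.3 gene, with glycine 34 changed to arginine or to tryptophan. Plants had 16-h days with 8 h of darkness at 22 °C, and each group had 3 RNA-seq libraries of whole seedlings. No h3.3ko line with unmodified HTR5 is part of the comparison, and effects of the substitution and of its genetic background cannot be told apart. The labels do not say which H3.3 alleles the knockout holds, what drives HTR5, how many transformants each line represents, or whether replicates were separate plantings.

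SAUR proteins are best known as promoters of cell expansion. Those of the SAUR19 and SAUR63 subfamilies bind and inhibit PP2C.D phosphatases, which otherwise switch off plasma membrane proton pumps, and the pumps then acidify the wall so that it can stretch. Auxin, brassinosteroids, warmth and the PIF light-signalling factors raise many SAUR transcripts in the hypocotyl, while other members respond to light in cotyledons, to abscisic acid, to ethylene or to age. Many members lie in tandem clusters, the products of repeated local duplication, and the transcripts of several are known to turn over fast.

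The table gives TPM, a transcript level normalised to gene length that sums to 1000000 in each library. Recovered reads per library ran from 12889624 to 14730745, and 3 reads in a gene of 1 kb corresponded to 0.422 to 0.495 TPM. HTR8, another H3.3 gene, stood at 207 to 214 TPM in wild type, 3.92 to 5.86 for G34R and 4.65 to 6.69 for G34W. HTR4, the third H3.3 gene, had means of 418 TPM in wild type, 135 for G34R and 159 for G34W. HTR5 had means of 333, 357 and 380 TPM. Its small rise was called on the deposited scale and not after median-ratio scaling. Markers of tissues also differed between the groups. All 11 root markers, 6 of root hairs and 5 of the endodermis, rose in each line, and their summed level was 50.4 to 55.5 TPM in wild type, 141 to 166 for G34R and 122 to 130 for G34W. PRP3, a root hair wall protein gene, had means of 6.73, 26.4 and 18.5 TPM, and the endodermal CASP1 had 19.6, 53.9 and 44.9. Of 8 green tissue markers, 5 fell and 1 rose in each line, and their sum was 70416 to 70931 TPM in wild type, 63064 to 66959 for G34R and 63059 to 64546 for G34W. After median-ratio scaling 10 of the root markers rose in G34W, and 7 green markers fell in G34R and 8 in G34W. On the deposited scale 34.6% of all genes fitted rose and 16.5% fell in G34R, and 44.8% rose and 13.1% fell in G34W. No marker was at 0 in all libraries. The part of these shifts in the SAUR results below was not tested, and in whole seedlings fewer cells of a type and less RNA per cell cannot be told apart.

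The members fell into 4 tandem clusters with 23 genes, named here by locus number, and 26 genes outside them, 10 of which lay beside another member and 16 alone. The AT5G18 cluster holds SAUR19 to SAUR24, 6 closely similar copies on chromosome 5 within 21.5 kb (chr5:5962773-5984308, TAIR10.1). Any 2 of their coding sequences matched at 87.7% to 95.2% of aligned bases, with a median of 91.2%, and each is a single coding exon of 267 to 276 bases. The first 60 coding bases are shown because they tell where the copies that sequencing reads had to be assigned to are alike and where they differ. Capitals mark the 12 positions at which the 6 copies are not all the same.
SAUR19: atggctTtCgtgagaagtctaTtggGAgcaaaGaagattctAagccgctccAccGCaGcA
SAUR20: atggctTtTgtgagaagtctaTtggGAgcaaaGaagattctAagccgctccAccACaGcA
SAUR21: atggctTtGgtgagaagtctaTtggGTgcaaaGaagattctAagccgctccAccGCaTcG
SAUR22: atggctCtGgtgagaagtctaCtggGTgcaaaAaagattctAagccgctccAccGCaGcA
SAUR23: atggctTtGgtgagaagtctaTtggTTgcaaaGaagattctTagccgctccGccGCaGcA
SAUR24: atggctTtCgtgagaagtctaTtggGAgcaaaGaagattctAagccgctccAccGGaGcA
The sources used here do not say how the authors' counting treated reads that match several copies, so levels of single copies are uncertain and the cluster's sum is the firmer value. The other clusters were more diverged. Identity within AT1G29 (8 genes in 21.9 kb of chromosome 1) ran from 45.4% to 89.3%. It ran from 49.7% to 62.4% within AT4G34 (6 genes in 17.4 kb of chromosome 4) and reached 60.3% at most within AT4G38 (3 genes in 6.3 kb of chromosome 4). Between clusters the median was 46.5%, and the closest such match was SAUR16 with SAUR12 at 85.5%.

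Genes of the same cluster often shared short motifs near their starts, and duplicated copies were counted as separate promoters. The window searched ran from 250 bases before to 50 bases after the annotated start, on both strands, each motif counted on its own whether or not it overlapped another. CACATG, an E-box variant that PIF factors can bind, was present in 26 of 49 members (53.1%) and in 12.9% of all 27443 promoters, and in all 8 AT1G29 genes. GGTCCC, whose reverse complement is GGGACC and which is part of an auxin-responsive element described in soybean SAUR promoters, was in 9 members (18.4%) against 3.33% of all promoters. Of those 9 members, 7 were in AT1G29. CATATG, from the same soybean element, was in 9 members (18.4%) against 8.07%, among them 4 of 6 AT5G18 genes. TGTCTC, a classic auxin response factor motif, was about as frequent in members (14.3%) as in all promoters (14.2%), TGTCGG was in 4.08% against 5.12%, and CACGTG, the G-box, was in 2.04% against 7.68%. The stretches of 5 AT1G29 promoters that hold CACATG and GGGACC are shown because they show how alike the copies are there. Capitals mark the 2 motifs, each sequence is on its gene's strand, and all lie before the annotated start.
SAUR61 (chr1:10302136-10302180, minus strand): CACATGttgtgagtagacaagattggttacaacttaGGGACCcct
SAUR62 (chr1:10303444-10303527, minus strand): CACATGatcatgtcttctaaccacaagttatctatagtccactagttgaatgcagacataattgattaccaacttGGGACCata
SAUR63 (chr1:10305219-10305301, minus strand): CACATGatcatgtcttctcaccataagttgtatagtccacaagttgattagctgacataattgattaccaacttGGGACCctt
SAUR64 (chr1:10306602-10306690, minus strand): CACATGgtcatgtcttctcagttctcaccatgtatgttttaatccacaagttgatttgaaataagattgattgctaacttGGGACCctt
SAUR65 (chr1:10308261-10308350, minus strand): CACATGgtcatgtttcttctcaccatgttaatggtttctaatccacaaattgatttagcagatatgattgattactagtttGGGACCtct
The AT5G18 genes with CATATG share a different stretch, shown with that motif in capitals.
SAUR20 (chr5:5966875-5966920, minus strand): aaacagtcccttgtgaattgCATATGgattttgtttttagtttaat
SAUR21 (chr5:5968190-5968235, plus strand): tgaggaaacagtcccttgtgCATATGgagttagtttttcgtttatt
SAUR22 (chr5:5975241-5975286, minus strand): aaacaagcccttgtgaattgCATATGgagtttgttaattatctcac
SAUR24 (chr5:5983501-5983546, plus strand): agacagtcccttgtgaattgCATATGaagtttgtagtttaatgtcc
A match is a description of these letters and not evidence of binding.

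Most of the abundant SAUR transcripts were lower in both lines. Several weakly expressed members were higher, about as often as all genes of such levels. The summed level of the 49 members was 1502 to 1546 TPM in wild type, 1110 to 1148 for G34R and 1150 to 1184 for G34W, which is 74.7% and 77.1% of the wild-type mean. Genes entered the fit if their TPM averaged 1 or more across all libraries, and 43 of 49 members did. A gene is said to have risen or fallen where the two-sided limma test on log2(TPM + 1), adjusted over all 18544 genes fitted, gave an adjusted p under 0.05. In G34R, 10 members rose, 22 fell and 11 were not called, where 51.1% of all genes fitted were called, 34.6% higher and 16.5% lower. In G34W, 11 rose, 21 fell and 11 were not called, where 57.8% of all genes were called, 44.8% higher and 13.1% lower. The median log2 difference of the 43 members was -0.30 in G34R and -0.21 in G34W, and that of all genes fitted was 0.10 and 0.21. The comparisons share the wild-type libraries, so their counts are not independent of each other. With median-ratio scaling of the libraries the all-gene medians became -0.01 and 0.01. All genes then rose and fell in about equal numbers, 4665 against 4911 in G34R and 4500 against 4509 in G34W, in place of 6419 against 3060 and 8300 against 2427. The members split 7 against 23 and 8 against 22 on that scale.

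**Figure D1:**
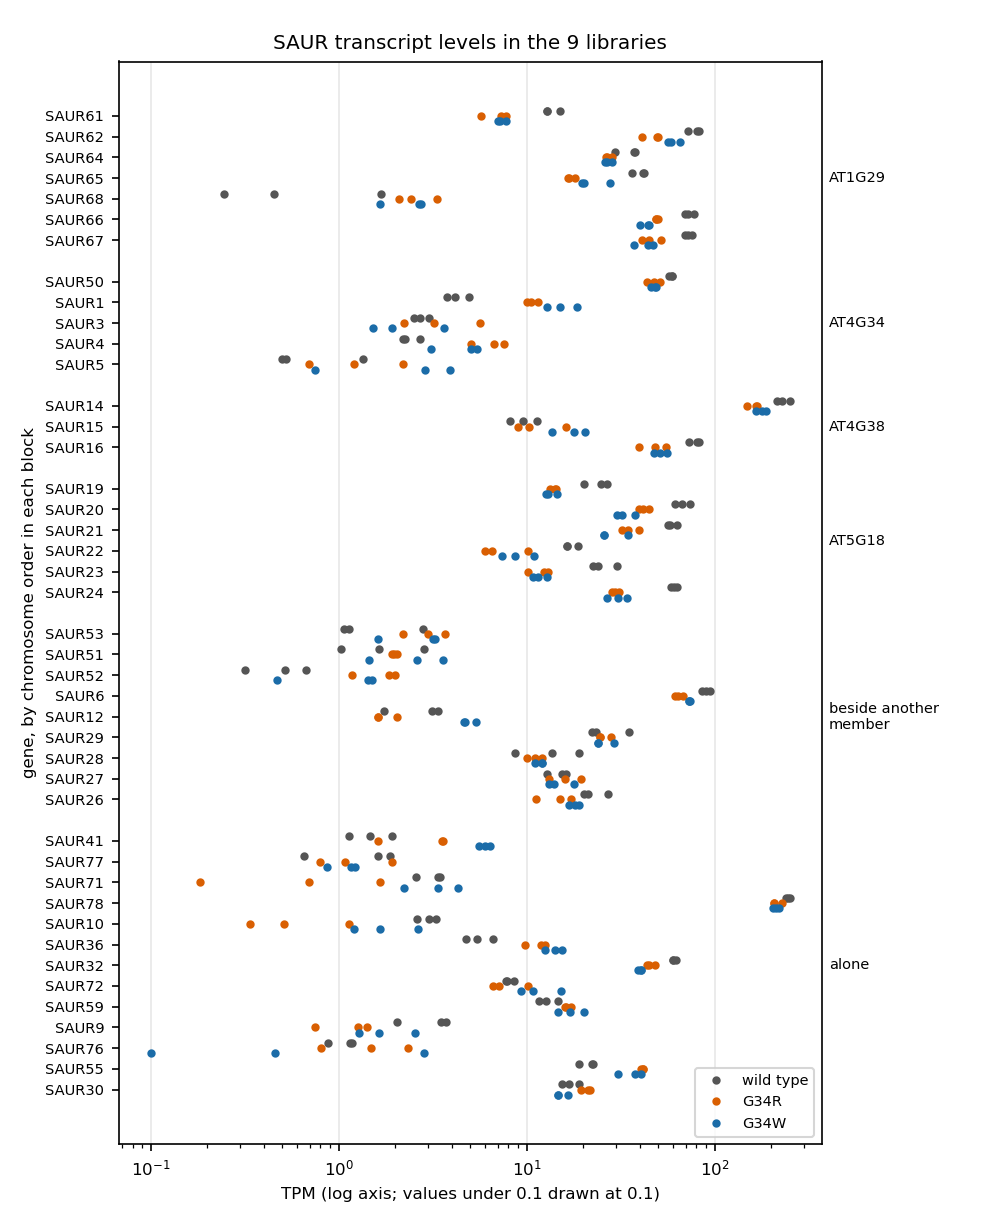
TPM of the 43 fitted SAUR genes (log axis) in each of the 9 libraries, 1 point per library, in blocks by cluster and in chromosome order. The 6 AT5G18 genes show wild-type points to the right of all points of both lines, while SAUR1, SAUR36 and SAUR55 show the reverse.

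The SAUR19 to SAUR24 cluster, whose products promote hypocotyl and leaf cell expansion, was lower as a block. Its summed level was 250 to 259 TPM in wild type, 134 to 151 for G34R and 125 to 128 for G34W, or 55.1% and 49.7% of the wild-type mean. All 6 genes fell in each line, where 16.5% of all genes fitted fell in G34R and 13.1% in G34W. For none of the 6 did the wild-type libraries overlap with those of either line. How many of all genes show no overlap was not counted. SAUR20 (AT5G18020), the most abundant copy in wild type, stood at 74, 61.6 and 67.3 TPM in wild type, 44.8, 41.6 and 39.4 for G34R and 32.3, 30.4 and 37.5 for G34W. All 6 line libraries were below the lowest wild-type library, and the G34W libraries were all below those of G34R. SAUR24 (AT5G18080) stood at 63.1, 58.5 and 60.9 TPM in wild type, 31, 28.5 and 29.4 for G34R and 34, 26.7 and 30.8 for G34W. SAUR21 (AT5G18030) stood at 56.8, 63.2 and 58.2 TPM, at 39.6, 34.6 and 32.1, and at 25.9, 34.4 and 25.7 in the same order. SAUR24 had about the same level in both lines, whereas SAUR21 overlapped between them with a lower mean in G34W. The less abundant copies SAUR19 (AT5G18010), SAUR22 (AT5G18050) and SAUR23 (AT5G18060) had means of 23.9, 17.2 and 25.7 TPM in wild type, 14, 7.55 and 11.9 for G34R and 13.4, 8.96 and 11.7 for G34W. The fitted log2 differences ran from -1.12 ± 0.16 (SE, n = 3 and 3) for SAUR22 to -0.67 ± 0.08 for SAUR20 in G34R, with a median of -0.87. They ran from -1.07 ± 0.11 for SAUR23 to -0.79 ± 0.10 for SAUR19 in G34W, with a median of -0.99. The copies' shares of the cluster's reads were similar in the 3 groups. SAUR21 held 28.1% in wild type, 30.5% in G34R and 27.3% in G34W, and SAUR22 held 7.24%, 5.8% and 7.59%.

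The SAUR61 to SAUR68 cluster, which includes the SAUR63 subfamily of elongation-promoting genes, was lower in 6 of its 7 fitted members. Of all genes fitted, 16.5% fell in G34R and 13.1% in G34W. The cluster's sum was 311 to 315 TPM in wild type, 194 to 198 for G34R and 198 to 212 for G34W, or 62.4% and 65.6% of the wild-type mean. SAUR62 (AT1G29430) stood at 72.2, 80.6 and 82.1 TPM in wild type, 41, 49.5 and 50.2 for G34R and 65.6, 56.4 and 58.8 for G34W. It fell by 0.73 ± 0.08 in G34R and by 0.37 ± 0.08 in G34W, and the lines did not overlap with each other. SAUR65 (AT1G29460) stood at 42.3, 36.3 and 41.4 TPM, at 18.1, 16.5 and 16.8, and at 19.6, 27.6 and 20.3. It fell by 1.18 ± 0.11 and by 0.82 ± 0.11, the deepest fall of the cluster in G34R and about equal to that of SAUR61 in G34W. SAUR66 (AT1G29500) had wild-type values of 72.1, 77.9 and 69.6 TPM, G34R values of 48.6, 48.5 and 50, and G34W values of 44.3, 40.2 and 44.7. SAUR67, the gene AT1G29510, had 76, 69.7 and 72.6 TPM, then 51.7, 44.6 and 40.9, then 46.8, 37.3 and 44.3. Both were below wild type in all 6 line libraries, with log2 differences of -0.57 ± 0.06 and -0.75 ± 0.06 for SAUR66 and of -0.67 ± 0.09 and -0.76 ± 0.09 for SAUR67. SAUR61 (AT1G29420) had means of 13.5, 6.96 and 7.32 TPM and fell by 0.88 ± 0.12 and by 0.80 ± 0.12. SAUR64 (AT1G29450) fell least, by 0.33 ± 0.08 and by 0.34 ± 0.08, from 29.5 to 37.5 TPM in wild type down to 26.5 to 28.5 for G34R and 26.2 to 28.4 for G34W. The exceptions were the least expressed members. SAUR68, the gene AT1G29490, is the most diverged fitted member of the cluster, with at most 60.6% identity to any other SAUR here. It rose by 1.08 ± 0.25 and by 0.97 ± 0.25, from 1.67, 0.246 and 0.455 TPM to 2.1, 2.42 and 3.32 in G34R and 2.68, 1.66 and 2.73 in G34W. These levels rest on 1 to 7 reads in wild type and 7 to 15 in the lines. SAUR63 (AT1G29440) was listed at 0 in all 9 libraries, although its coding sequence is 89.3% identical to that of SAUR67, and how reads shared by the 2 genes were assigned is not given in the sources used here.

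The AT4G38 cluster holds SAUR14 (AT4G38840), SAUR15 (AT4G38850) and SAUR16 (AT4G38860) and had 68.9% of its wild-type sum in G34R and 77% in G34W. SAUR14 and SAUR16 are known as light-induced SAURs of the cotyledons. SAUR14 stood at 214, 228 and 251 TPM in wild type, 165, 148 and 169 for G34R and 187, 167 and 178 for G34W, and it fell by 0.52 ± 0.06 and by 0.38 ± 0.06. SAUR16 stood at 73.1, 80.8 and 82.7 TPM, at 39.6, 54.9 and 48.2, and at 51.5, 56 and 47.4, and it fell by 0.73 ± 0.09 and by 0.60 ± 0.09. For both genes every line library was below every wild-type library. SAUR15, also called SAUR-AC1 and a standard reporter of rapid auxin response, did not follow its neighbours. It stood at 9.55, 8.12 and 11.4 TPM in wild type, 16.2, 10.3 and 9.03 for G34R and 17.9, 13.6 and 20.4 for G34W. It rose in G34W by 0.77 ± 0.18, with no overlap with wild type, and was not called in G34R, where 1 library was high and the others overlapped with wild type.

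The AT4G34 cluster was the most mixed, and its sum hardly moved on the deposited scale. It stood at 68 to 69.1 TPM in wild type, 67.4 to 73.1 for G34R and 67.3 to 75.6 for G34W. SAUR50 (AT4G34760), another light-induced member, supplied most of it. SAUR50 stood at 59.1, 56.9 and 59.3 TPM in wild type, 51.1, 47.4 and 43.6 for G34R and 45.9, 48.6 and 47.9 for G34W, and it fell by 0.30 ± 0.06 in each line. SAUR1 (AT4G34770), some kilobases away, moved the other way. It stood at 4.17, 4.96 and 3.75 TPM, at 10.6, 11.5 and 10.1, and at 12.9, 15 and 18.6, so the 3 groups did not overlap. SAUR1 rose by 1.15 ± 0.13 in G34R and by 1.63 ± 0.13 in G34W, the largest fitted rise in each comparison on the log2(TPM + 1) scale. That scale understates rarer members. By mean TPM, SAUR1 had 4.29, 10.7 and 15.5 in the 3 groups. SAUR68 rose more steeply in G34R, from 0.792 to 2.61 TPM, and so did SAUR41 in G34W, from 1.51 to 6.01 TPM. SAUR4 (AT4G34800) rose by 1.12 ± 0.18 and by 0.68 ± 0.18, from 2.2, 2.26 and 2.72 TPM to 7.53, 5.06 and 6.73 in G34R and 3.09, 5.47 and 5.03 in G34W. SAUR5 (AT4G34810) was near the detection limit, at 0.526, 1.35 and 0.499 TPM in wild type, 0.691, 1.21 and 2.19 for G34R and 3.93, 2.87 and 0.751 for G34W. Its rise of 0.88 ± 0.32 in G34W was lost under several settings, with an adjusted p of 0.161 without G34W replicate 1, 0.0973 without G34W replicate 2, 0.0888 without wild type replicate 1 and 0.0917 without wild type replicate 3. The call of SAUR4 in G34W was lost with limma-voom on the recovered reads, with an adjusted p of 0.056. SAUR3 (AT4G34790) had 2.5 to 3.04 TPM in wild type, 2.23 to 5.63 for G34R and 1.52 to 3.62 for G34W and was not called, and SAUR2 (AT4G34780) was listed at 0 in all libraries.

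**Figure D2:**
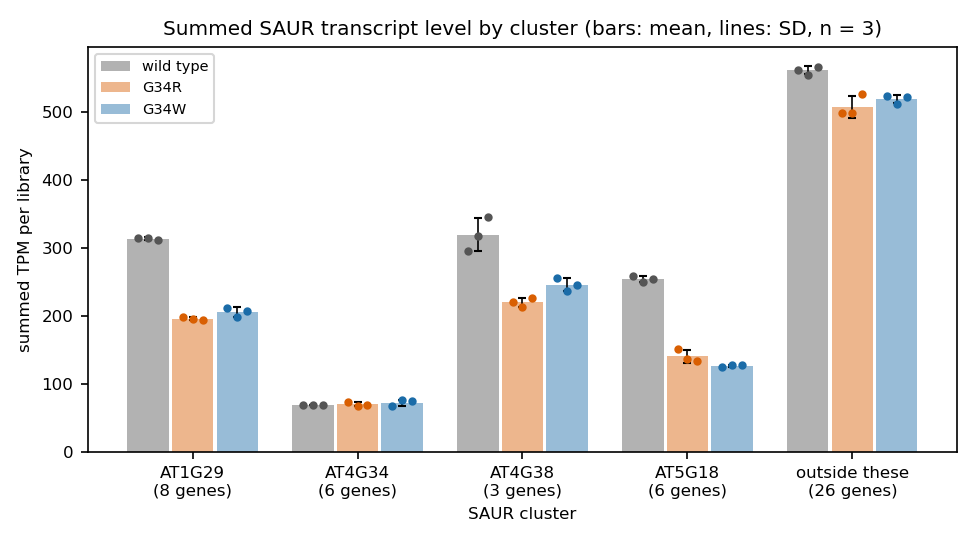
Summed TPM per library of each cluster and of the 26 members outside the clusters, with bars for the mean of 3 libraries, lines for the SD and points for libraries. AT5G18 drops from 250 to 259 TPM in wild type to 125 to 128 in G34W. AT4G34 stays between 67.3 and 75.6 TPM in all libraries on the deposited scale.

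Neighbouring genes that are not SAURs fell about as often as all genes in G34R, and on the deposited scale none fell in G34W. The nearest 2 protein-coding genes on each side and all those between members, 23 in all and chosen by position, held 14 that were fitted. In G34R 8 of these rose (57.1%), AT1G29470 and MRL1 fell (14.3%) and 4 were not called. Of all genes fitted, 34.6% rose and 16.5% fell there. In G34W 9 rose (64.3%) and 5 were not called, where 44.8% of all genes rose and 13.1% fell. No neighbour of the AT4G38 cluster was fitted, as each averaged under 1 TPM. Their median log2 differences were 0.34 and 0.22, beside 0.10 and 0.21 for all genes. With median-ratio scaling 5 rose and 3 fell in G34R, and 4 rose and 2 fell in G34W. AT1G29465, which lies between SAUR65 and SAUR68, stood at 27.4, 30.6 and 27.1 TPM in wild type, 63.6, 66.3 and 65.7 for G34R and 41.1, 43 and 43.7 for G34W, so the 3 groups did not overlap. It rose by 1.17 ± 0.06 (limma adjusted p = 8.02e-11) and by 0.57 ± 0.06 (adjusted p = 5.46e-07). DRT101, between SAUR23 and SAUR24, had means of 6.96, 7.57 and 7.42 TPM with overlapping groups and was not called. The list excludes SAUR49, a SAUR gene beside SAUR50 that is described with the other family members.

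**Figure D3:**
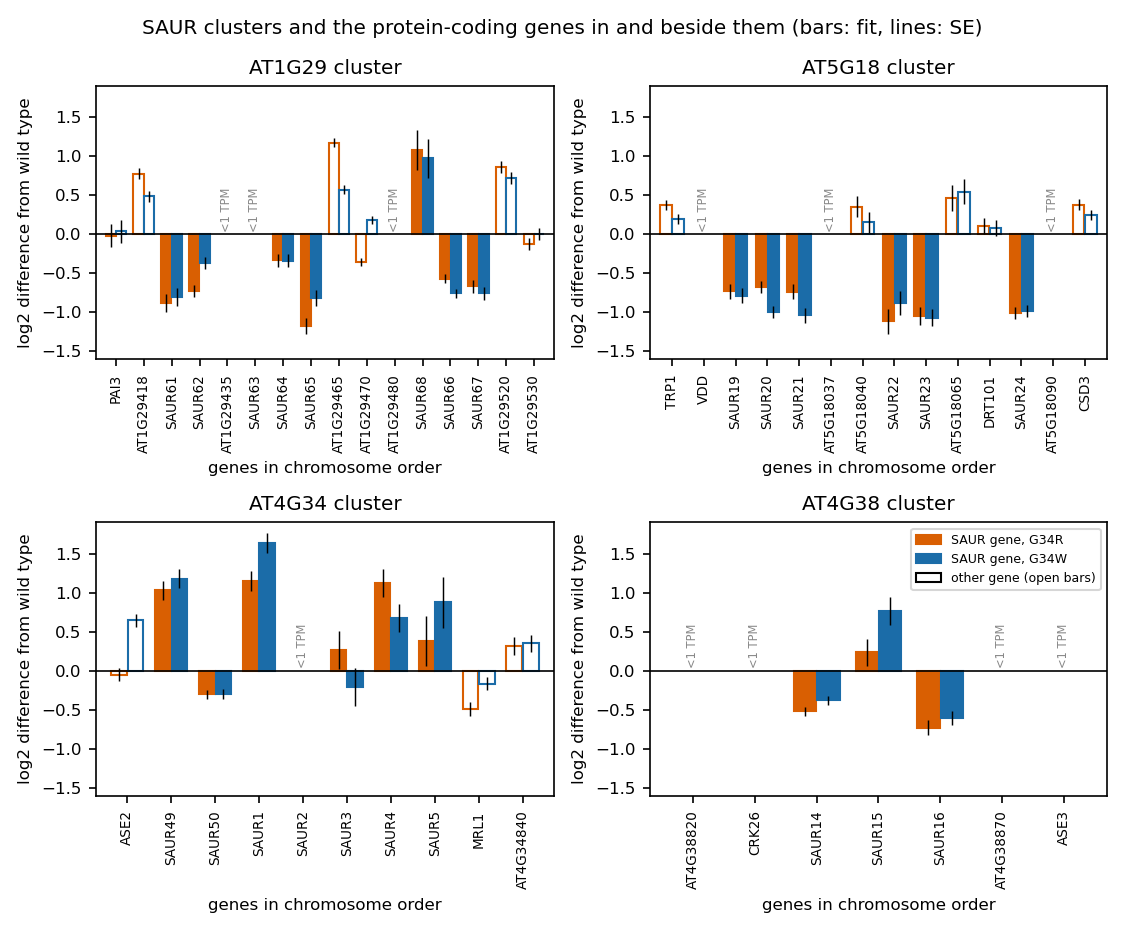
Fitted log2 difference from wild type (bars, lines for SE) of the genes in and beside each cluster in chromosome order, filled bars for SAUR genes, SAUR49 included, and open bars for other protein-coding genes. Genes under a mean of 1 TPM were not fitted and are written as such. The filled bars of AT5G18 all point down, from -0.67 to -1.12, while the open bars among them do not.

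Members outside the 4 clusters were called in both directions. Of 22 fitted, 7 rose (31.8%), 7 fell (31.8%) and 8 were not called in G34R, where 34.6% of all genes rose and 16.5% fell. In G34W 6 rose (27.3%), 6 fell (27.3%) and 10 were not called, where 44.8% of all genes rose and 13.1% fell. Their medians were -0.04 and -0.01, beside 0.10 and 0.21 for all genes and -0.66 and -0.60 for the 21 fitted cluster members. By cluster the medians ran from -0.87 and -0.99 in AT5G18 to 0.38 and 0.68 in AT4G34. Most members with a mean of at least 20 TPM are cluster genes, so the sets also differ in abundance. With median-ratio scaling 4 rose and 8 fell in G34R and 4 rose and 7 fell in G34W, with medians of -0.14 and -0.22 beside -0.01 and 0.01 for all genes. The summed level was 555 to 567 TPM in wild type, 498 to 526 for G34R and 512 to 523 for G34W. Among the 9 fitted members that lie beside another member, 2 rose and 2 fell in G34R and 1 rose and 2 fell in G34W. Among the 13 fitted that stand alone, 5 rose and 5 fell in G34R and 5 rose and 4 fell in G34W. Of the tandem AT3G03 group only SAUR26 was called. SAUR26 to SAUR29, 4 genes in 7.1 kb of chromosome 3 with 77.7% to 86.3% identity, are known for natural variation in growth response to temperature. SAUR29 (AT3G03820) stood at 34.9, 23.5 and 22.3 TPM in wild type, 24.5, 24.5 and 28.1 for G34R and 24.1, 24.1 and 29.2 for G34W. SAUR27 (AT3G03840) had 12.8 to 16.1, 13.1 to 19.4 and 13.2 to 17.9 TPM, and SAUR28 (AT3G03830) had 8.72 to 19, 10.1 to 12 and 11.1 to 12 TPM. In all 3 genes the groups overlapped and no call was made. SAUR26 (AT3G03850) stood at 21.2, 27.1 and 20.1 TPM, at 17.2, 11.2 and 15, and at 18.1, 16.8 and 18.9. It fell by 0.63 ± 0.13 in G34R. Its fall of 0.32 ± 0.13 in G34W was lost in 8 settings. The adjusted p was 0.228 without wild type replicate 2 and 0.0501 to 0.124 without G34R replicate 3 or any 1 of the G34W replicates.

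The members outside the clusters that fell included both abundant and rare transcripts. SAUR78 (AT1G72430), an ethylene-responsive member that promotes leaf growth and the most abundant SAUR here, stood at 240, 245 and 251 TPM in wild type, 207, 206 and 227 for G34R and 211, 205 and 219 for G34W. It fell by 0.20 ± 0.04 and by 0.21 ± 0.04, a small step with no overlap with wild type. SAUR6 (AT2G21210) stood at 94.1, 85.8 and 89.8 TPM, at 68, 61.8 and 63.6, and at 72.8, 73.9 and 73.2, and it fell by 0.47 ± 0.05 and by 0.29 ± 0.05. SAUR32 (AT2G46690), which is known for its part in the apical hook, stood at 62.4, 59.7 and 59.9 TPM, at 43.5, 47.9 and 44.8, and at 40.7, 40.4 and 39.2. It fell by 0.41 ± 0.05 and by 0.58 ± 0.05, with lower values in every G34W library than in any G34R library. SAUR9 (AT4G36110) and SAUR10 (AT2G18010), whose coding sequences are 73.8% identical, were weakly expressed. SAUR10 had 3.31, 3.03 and 2.62 TPM in wild type, 1.13, 0.338 and 0.511 for G34R and 1.2, 1.65 and 2.63 for G34W, from 2 to 18 reads. It fell by 1.29 ± 0.21 in G34R, the deepest fall of any member there. SAUR9 had 2.05, 3.51 and 3.73 TPM, then 0.749, 1.41 and 1.26, then 1.28, 2.54 and 1.63, and fell by 0.92 ± 0.21 in G34R. Their falls in G34W, 0.52 ± 0.21 for SAUR10 and 0.54 ± 0.21 for SAUR9, were close to the threshold. For SAUR10 the adjusted p was 0.2 without G34W replicate 1, 0.107 without G34W replicate 2, 0.0514 without G34R replicate 3 and 0.0559 to 0.128 without any 1 wild type replicate. For SAUR9 it was 0.164 without G34W replicate 1, 0.1 without G34W replicate 3, 0.131 without wild type replicate 2 and 0.155 without wild type replicate 3. With the replicate number as a block, SAUR10 had an adjusted p of 0.0572 and SAUR26 one of 0.0514 in G34W.

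SAUR36 (AT2G45210), SAUR55 (AT5G50760), SAUR41 (AT1G16510) and SAUR59 (AT3G60690), each alone in the genome, rose in both lines. SAUR36, also called SAG201 and known to promote leaf senescence, stood at 5.46, 4.77 and 6.61 TPM in wild type, 9.81, 12.5 and 11.9 for G34R and 15.5, 14.1 and 12.5 for G34W. It rose by 0.91 ± 0.13 and by 1.19 ± 0.13, with no overlap with wild type. SAUR55 stood at 18.9, 22.6 and 22.2 TPM, at 41.7, 41.8 and 40.4, and at 40.6, 37.6 and 30.7, and rose by 0.93 ± 0.09 and by 0.74 ± 0.09. SAUR41, which is known for endodermal expression and promotes cell expansion, stood at 1.47, 1.14 and 1.92 TPM, at 1.61, 3.55 and 3.58, and at 6.02, 6.4 and 5.61. It rose by 0.61 ± 0.20 in G34R and by 1.49 ± 0.20 in G34W. All 5 endodermal markers given above also rose in each line. Their summed level was higher in G34R (mean 102 TPM) than in G34W (84.2), whereas SAUR41 was lower in G34R (mean 2.91) than in G34W (6.01). A tie between SAUR41 and the markers was not tested. In G34R 1 library of SAUR41 lay within the wild-type range. The call there was lost without wild type replicate 2 (adjusted p = 0.0762), G34R replicate 2 (0.0919) or G34R replicate 3 (0.0873). SAUR59 stood at 11.7, 14.6 and 12.6 TPM, at 16.2, 17.2 and 16, and at 20.2, 17 and 14.6, and rose by 0.33 ± 0.11 and by 0.38 ± 0.11. With median-ratio scaling neither rise was called, with adjusted p of 0.127 and 0.202. In G34R the adjusted p was 0.0788 without wild type replicate 1, 0.0518 without wild type replicate 3 and 0.0634 without G34R replicate 2.

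Other members were called in 1 line only. SAUR30 (AT5G53590) stood at 18.9, 15.4 and 16.7 TPM in wild type, 21.6, 19.5 and 21.3 for G34R and 14.6, 14.7 and 16.5 for G34W. It rose in G34R by 0.28 ± 0.09, a call lost with median-ratio scaling (adjusted p = 0.155) and without wild type replicate 2 (0.0815). SAUR52 (AT1G75590) rose in G34R by 0.83 ± 0.23, from 0.319 to 0.671 TPM to 1.18 to 2, and had 0.47 to 1.5 TPM in G34W. SAUR52 rested on 2 to 4 reads in wild type, and without G34R replicate 2 it averaged under 1 TPM and was not fitted. SAUR53 (AT1G19840), its nearest relative by sequence, rose in G34R by 0.61 ± 0.24, with 1.07 to 2.81 TPM in wild type, 2.19 to 3.67 for G34R and 1.62 to 3.24 for G34W. That call was lost in 9 settings, with adjusted p of 0.178 without wild type replicate 2, 0.167 without wild type replicate 3, 0.102 without G34R replicate 1, 0.172 without G34R replicate 2, 0.0511 without G34W replicate 1 and 0.0508 without G34W replicate 3. SAUR71 (AT1G56150), a stele-expressed relative of SAUR41, fell in G34R by 1.24 ± 0.25. It stood at 2.57, 3.46 and 3.38 TPM in wild type, 0.694, 0.182 and 1.65 for G34R and 2.22, 4.32 and 3.39 for G34W, where it overlapped with wild type. SAUR72 (AT3G12830), closest to SAUR71 in sequence, stood at 7.89, 7.77 and 8.59 TPM, at 6.63, 7.1 and 10.2, and at 15.2, 9.3 and 10.8, and rose in G34W by 0.47 ± 0.16. The adjusted p of that rise was 0.179 with median-ratio scaling, 0.137 without G34W replicate 1, 0.0516 without wild type replicate 1 and 0.055 without wild type replicate 2. SAUR12 (AT2G21220), next to SAUR6, stood at 1.75, 3.39 and 3.14 TPM, at 2.04, 1.61 and 1.62, and at 4.72, 4.63 and 5.36. It rose in G34W by 0.68 ± 0.18, with every G34W library above every other library. SAUR51 (AT1G75580), SAUR76 (AT5G20820) and SAUR77 (AT1G17345) were not called in either line, with levels of 1.03 to 3.58, 0 to 2.84 and 0.651 to 1.93 TPM over the 9 libraries.

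**Figure D4:**
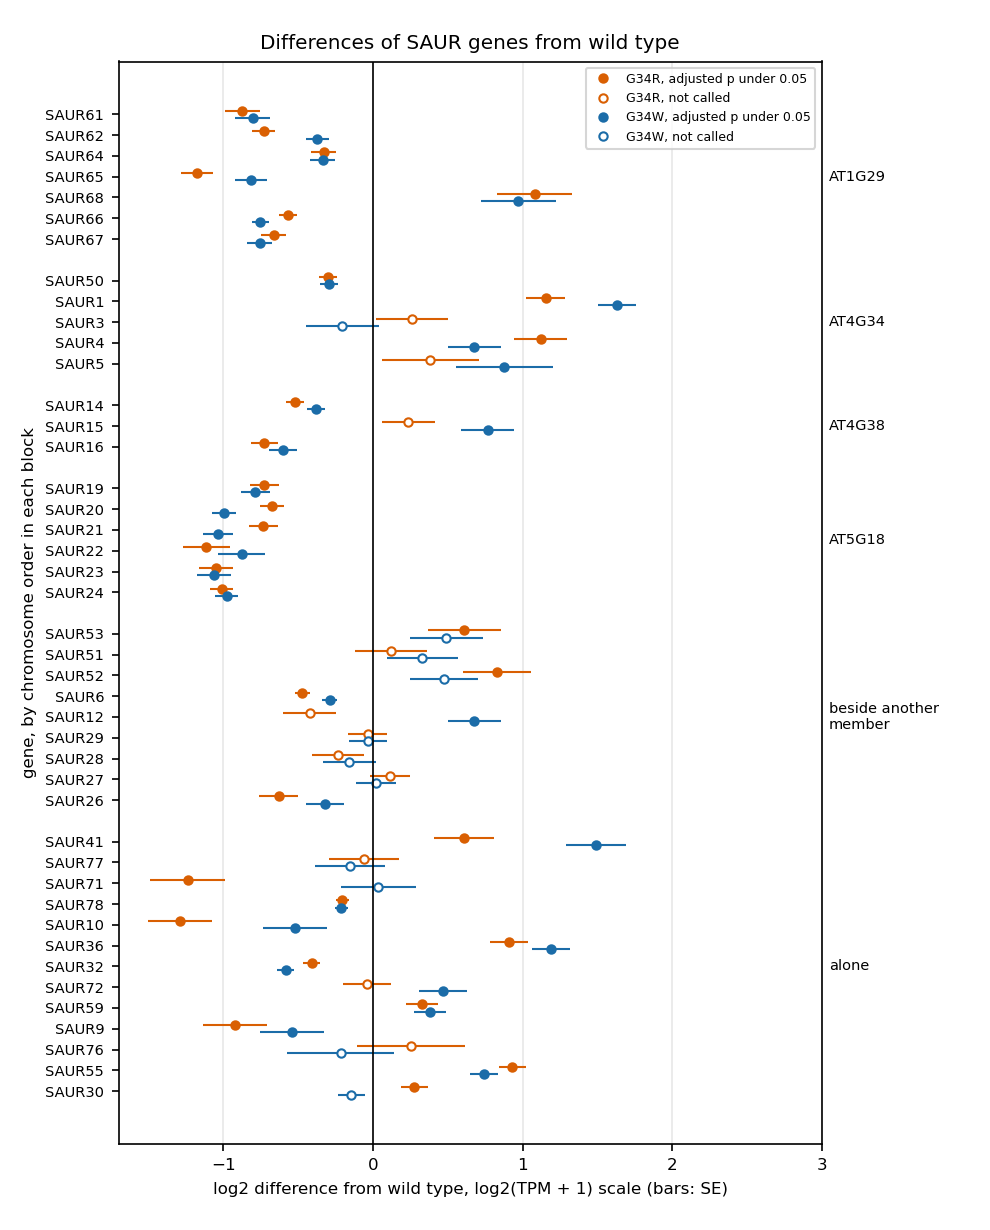
Fitted log2 difference from wild type of the 43 fitted SAUR genes on the log2(TPM + 1) scale, with SE as lines, filled points for calls and open points for none. In the AT5G18 block all 12 points lie left of 0, while the genes that stand alone lie on both sides.

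The 6 members under a mean of 1 TPM were not fitted. SAUR63, SAUR2 and SAUR25 (AT4G13790) were at 0 in all 9 libraries. SAUR8 (AT2G16580) was above 0 in all 9 libraries with at most 1.25 TPM, SAUR31 (AT4G00880) in all 9 with at most 1.96, and SAUR54 (AT1G19830) in 7 with at most 1.39.

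Among the abundant members most were called lower. Of 16 members with a mean of at least 20 TPM, 14 fell, SAUR55 rose and SAUR29 was not called in each comparison with wild type. Of all 7104 genes at or above that level, 24.3% fell and 39.8% rose in G34R, and 20.1% fell and 49.9% rose in G34W. Of 27 members from 1 to under 20 TPM, 9 rose (33.3%) and 8 fell (29.6%) in G34R, and 10 rose (37%) and 7 fell (25.9%) in G34W. Of all 11440 genes at that level, 31.4% rose and 11.7% fell in G34R, and 41.5% rose and 8.73% fell in G34W. The split at 20 TPM was chosen after the values were seen.

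**Figure D5:**
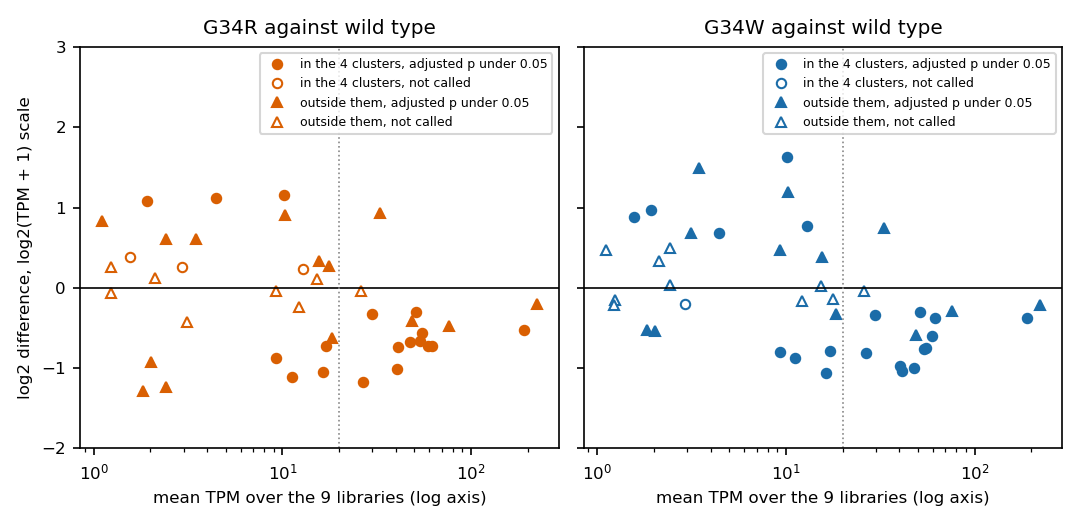
Fitted log2 difference from wild type of the 43 fitted SAUR genes against their mean TPM over the 9 libraries (log axis), circles for the 4 clusters and triangles for other members, filled where called. To the right of the dotted line at 20 TPM, 14 of 16 genes lie below 0 and are called in each line.

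The lines differed from each other in fewer members. In G34W against G34R, 10 members were higher (23.3%), 5 lower (11.6%) and 28 not called. These shares are close to those of all genes fitted, of which 33.3% were called, 21.5% higher and 11.8% lower. The widest gaps were in weakly expressed genes. SAUR71 was higher in G34W by 1.27 ± 0.25 and SAUR12 by 1.101 ± 0.18, with no overlap between the lines. SAUR41 was higher by 0.89 ± 0.20, SAUR10 by 0.77 ± 0.21 and SAUR1 by 0.48 ± 0.13. The call of SAUR10 was lost without G34R replicate 2 (adjusted p = 0.0585) or G34W replicate 3 (0.0723), and that of SAUR1 without G34W replicate 3 (0.0635). Among the abundant cluster members SAUR62 and SAUR65 were higher in G34W by 0.36 ± 0.08 and 0.36 ± 0.11, and SAUR20 was lower by 0.32 ± 0.08. The call of SAUR65 was lost with median-ratio scaling (adjusted p = 0.0635), with limma-voom (0.072) and without G34W replicate 2 (0.0827). SAUR30 was lower in G34W by 0.42 ± 0.09. With median-ratio scaling 6 were higher and 7 lower, so the direction of the count turned with the scaling, and all genes fitted split 2492 against 3250 in place of 3982 against 2192. Without G34R replicate 2 the number higher in G34W was 6.

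Of 29 further SAUR genes outside the list, 10 were fitted. In G34R 4 rose (40%) and 1 fell (10%), close to the 34.6% and 16.5% of all genes, and in G34W 2 rose (20%) and 2 fell (20%), where all genes gave 44.8% and 13.1%. Counts this small say nothing particular about these genes. SAUR49, beside SAUR50, stood at 4.54, 3.89 and 3.47 TPM in wild type, 9.95, 9.27 and 8.17 for G34R and 11, 9.14 and 10.6 for G34W. It rose by 1.03 ± 0.12 (limma adjusted p = 2.4e-06) and by 1.18 ± 0.12 (adjusted p = 4.66e-07), so 2 adjacent SAUR genes, SAUR49 and SAUR50, moved in opposite directions. SAUR57 had 5.01, 2.58 and 3.57 TPM in wild type and 0.785, 0.493 and 0.663 in G34R, and was listed at 0 in all 3 G34W libraries. SAUR46 had means of 4.79, 3.41 and 1.2 TPM and fell in G34W by 1.36 ± 0.19 (limma adjusted p = 1.39e-05). In G34W against G34R 4 were lower, a count that was 1 without G34R replicate 1 and 2 without G34R replicate 2.

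Genes of the auxin pathway around the SAURs were called in both directions, with more lower than higher. Of 90 listed genes, 83 were fitted. In G34R 21 rose (25.3%) and 33 fell (39.8%), where 34.6% of all genes rose and 16.5% fell. In G34W 26 rose (31.3%) and 29 fell (34.9%), where 44.8% of all genes rose and 13.1% fell. Their medians were -0.09 and -0.05, beside 0.10 and 0.21 for all genes. With median-ratio scaling, where all genes split about evenly, 18 rose and 43 fell in G34R and 16 rose and 44 fell in G34W. Most receptors of the TIR1/AFB group were not called on the deposited scale. AFB1, a receptor of rapid auxin responses that is strong in roots, was the exception in both lines. AFB1 had means of 25.9, 41.9 and 36.1 TPM and rose by 0.68 ± 0.07 (limma adjusted p = 3.36e-07) and by 0.47 ± 0.07 (adjusted p = 1.9e-05). AFB3, with means of 67.3, 64.1 and 61.4 TPM, fell in G34W by 0.13 ± 0.05 (limma adjusted p = 0.0476). With median-ratio scaling 4 of the 6 receptors fell in each line. Among 9 auxin response factors, the transcription factors that read out auxin, ARF6 rose from a mean of 12.6 TPM to 17.9 and 19.3. ARF7 and ARF8 fell in G34R, from 19.7 to 15.3 TPM and from 22.1 to 17.1, and were not called in G34W, at 17.2 and 21.9 TPM.

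Among early auxin-induced genes other than SAURs, Aux/IAA repressor genes were more often called lower than higher. Of 19, 5 rose (26.3%) and 8 fell (42.1%) in G34R, and 5 rose (26.3%) and 11 fell (57.9%) in G34W, beside the all-gene shares just given. With median-ratio scaling 3 rose and 10 fell in G34R, and 2 rose and 13 fell in G34W. IAA14 stood at 65.4, 66 and 75 TPM in wild type, 31.8, 33.8 and 35.2 for G34R and 27.1, 21.5 and 22.7 for G34W, and fell by 1.01 ± 0.08 (limma adjusted p = 2.5e-08) and by 1.50 ± 0.08 (adjusted p = 1.97e-10). IAA1 had means of 74.7, 31.4 and 41.7 TPM and also fell in both, whereas IAA9 rose from 86.3 to 133 and 135 TPM. Of 7 fitted genes of the GH3 family, several of which conjugate auxin to amino acids, 4 rose in each line (57.1%). In G34R 2 fell, and in G34W 1 fell. GH3.3 had means of 6.59, 10.2 and 17.9 TPM and rose, DFL2 rose from 16.7 to 26.6 and 24.7 TPM, and GH3.6 fell from 105 to 75.5 and 93.8 TPM. Of 8 fitted synthesis genes 4 fell in G34R and 3 in G34W, and the others were not called. The flavin monooxygenase gene YUC5 fell from 5.23 to 6.24 TPM in wild type down to 1.4 to 1.64 for G34R and 0.667 to 1.27 for G34W. YUC8 and YUC9 fell too, with means of 6.31 and 3.89 TPM in wild type, 4.42 and 2.33 for G34R and 2.83 and 0.914 for G34W. Of 9 transport genes 6 fell in G34R (66.7%) and 5 in G34W (55.6%). LAX3, an influx carrier, stood at 27.9 to 28.6 TPM in wild type, 12.9 to 13.4 for G34R and 11.6 to 12.7 for G34W, and PIN4 fell from 86.5 to 50.7 and 63.4 TPM. PIN2, an efflux carrier of the root tip, rose from a mean of 1.55 TPM to 6.09 and 4.85, along with the root markers given above.

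The targets and regulators of SAUR action were called in each direction. Of 9 PP2C.D phosphatase genes, whose products SAURs inhibit, 5 rose (55.6%) and 1 fell in G34R, where 34.6% of all genes rose, and 7 rose (77.8%) and 1 fell in G34W, where 44.8% of all genes rose. With median-ratio scaling 5 rose and 2 fell in G34R, and 3 rose and 1 fell in G34W. PP2C.D1 stood at 44, 49.9 and 48 TPM in wild type, 13.4, 17.1 and 17 for G34R and 28.3, 24.8 and 29.9 for G34W, and fell by 1.53 ± 0.09 (limma adjusted p = 8.31e-10) and by 0.76 ± 0.09 (adjusted p = 3.65e-06). PP2C.D7 rose from a mean of 4.69 TPM to 11.6 and 9.16, and PP2C.D2 from 39.2 to 51.1 and 49.6. Of 8 fitted proton pump genes 3 rose (37.5%) and 3 fell in G34R, and 4 rose (50%) and 1 fell in G34W. With median-ratio scaling 3 rose and 4 fell in G34R, and 3 rose and 3 fell in G34W. AHA2, a main pump of roots, rose from a mean of 101 TPM to 175 and 164. AHA1 was not called in G34R, with means of 190 and 199 TPM, and rose in G34W to 233. Of 8 PIF and brassinosteroid-pathway factors, 6 fell (75%) and 1 rose in each line on either scale, where 16.5% and 13.1% of all genes fell on the deposited scale. PIF4, which raises SAUR19 subfamily transcripts in warmth, stood at 140, 147 and 148 TPM in wild type, 120, 122 and 129 for G34R and 78.9, 81.4 and 77.4 for G34W. It fell by 0.23 ± 0.04 (limma adjusted p = 0.000356) and by 0.86 ± 0.04 (adjusted p = 9.17e-11). PIF5 fell from a mean of 257 TPM to 216 and 213, and PIF3 rose from 8.18 to 14.8 and 13.4.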

How the data were processed

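Per the labels, total RNA of whole seedlings was extracted with a Takara MiniBEST kit and libraries were made with NEBNext Ultra. The submitters' processing notes name TAIR10, HISAT2 2.1.10, fastp 0.20.1 and DESeq2 1.26.0, with no roles. Not given in the sources used here are the read counter, its strand setting and its handling of reads that match several genes. The deposited values are TPM made by the authors, 1000000 per library. Multiplied by gene spans of the TAIR10.1 assembly and scaled per library, they gave whole reads (tolerance 0.01) for 23088 of 23235 genes above 0 (99.4%), all 49 members included, so positions are given on TAIR10.1. Floors of 3 reads cover counting error only.

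Genes averaging 1 TPM or more were fitted with limma 3.58.1 (R 4.3.3) on log2(TPM + 1), 1 model over 3 groups with trended variances, two-sided and Benjamini-Hochberg adjusted at 0.05. The constant understates changes of low genes. On simulated data for G34R against wild type (18042 genes fitted), 92% of log2 changes of 1 and 31.3% of 0.5 were recovered, and 6.82% of calls were false. The simulation changed few genes, none of them with few reads, and gave every gene the same dispersion. In the data 51.1% of genes were called in G34R, so these rates do not carry over to them or to weakly expressed members. Because the labels do not call replicates separate plantings, p-values speak of the spread of these libraries, possibly technical. Alternatives were a constant of 0.1 TPM, no filter, median-ratio scaling, a replicate block, each library left out, and limma-voom on recovered reads, the last chosen after seeing the data. The planned edgeR test was not run because the table holds TPM.

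Members and gene lists were chosen with earlier results of these data known. All members at 1 TPM or more are named with values, others with their highest level, and from each other list up to 3 called genes with the smallest adjusted p. Sequences and gene models are from RefSeq's TAIR10.1 annotation, and identities are over aligned coding bases (Biopython 1.88).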

Additional observations from a re-analysis of the deposited data

Results flagged for a closer look

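These 15 members were singled out because the direct limma test between the lines called them, so that the G34R and G34W differences from wild type are not alike. Of the 43 members fitted, 23.3% were higher and 11.6% lower, close to the 21.5% and 11.8% of all genes fitted. The count therefore says nothing particular about SAUR genes. Values are log2 differences, G34W minus G34R, n = 3 and 3. Higher in G34W were SAUR71 (1.27), SAUR12 (1.101), SAUR41 (0.89), SAUR10 (0.77), SAUR15 (0.53), SAUR72 (0.50), SAUR1 (0.48), SAUR62 (0.36), SAUR65 (0.36) and SAUR6 (0.18). Lower in G34W were SAUR30 (-0.42), SAUR20 (-0.32), SAUR21 (-0.30), SAUR66 (-0.18) and SAUR32 (-0.17). Of these, SAUR15, SAUR65, SAUR72 and SAUR6 were not called after median-ratio scaling, with adjusted p of 0.0888, 0.0635, 0.0544 and 0.213. Leaving out 1 library ended the call of SAUR1 (adjusted p = 0.0635 without G34W replicate 3), SAUR10 (0.0585 without G34R replicate 2 and 0.0723 without G34W replicate 3), SAUR65 (0.0827 without G34W replicate 2), SAUR66 (0.0517 without G34R replicate 3 and 0.12 without G34W replicate 2) and SAUR32 (0.112 without G34R replicate 2 and 0.0749 without G34W replicate 3). It also ended that of SAUR6 (0.0568 without G34R replicate 2), SAUR21 (0.124 without G34R replicate 1, 0.106 without G34W replicate 1 and 0.117 without G34W replicate 3), SAUR15 (0.105 and 0.134 without G34R replicates 2 and 3, 0.0793 and 0.133 without G34W replicates 1 and 3) and SAUR72 (0.104 and 0.0859 without G34R replicates 1 and 2, 0.137 without G34W replicate 1). SAUR71, SAUR12, SAUR41, SAUR62, SAUR20 and SAUR30 were called in every alternative run.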

How the results depend on the processing

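Of 79 calls of a member in a comparison, 20 were lost under at least 1 alternative and 0 changed direction. The other 59 were made under every alternative in which the gene was fitted. SAUR52, called in G34R, is among them and was not fitted without G34R replicate 2. The count of members higher in G34W than in G34R was 10, and 6 with median-ratio scaling. Without the filter 7 further SAUR genes were called in G34W against wild type in place of 4, since more genes were then tested. Leaving out 1 library at a time gave 6 to 10 members that rose and 22 to 23 that fell in G34R, and 10 to 11 and 18 to 21 in G34W. Between the lines it gave 6 to 11 higher and 4 to 6 lower. The lowest counts of risers, 6 in G34R and 6 between the lines, came without G34R replicate 2. Further SAUR genes called between the lines ranged from 1 to 5. With the replicate number as a block, 32 members were called in G34R, 30 in G34W and 16 between the lines, in place of 32, 32 and 15. Deviations from group means correlated at -0.023 to 0.041 for same-numbered libraries and -0.059 to 0.029 for others, so no shared deviation by replicate number was seen. Whether same-numbered libraries were grown or prepared together cannot be told from this. With limma-voom 69 of the 79 calls were made. The edgeR alternative was not run. The cause of lost calls was not tested.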
